A study of Homo sapiens with 2 samples.

Results

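The genes described here are 44 interferon-stimulated genes of the 58884 genes measured in TPC-1, an established line of human papillary thyroid carcinoma cells. They were chosen by symbol as known interferon targets, with no threshold on their values but with earlier results of these libraries in view. All 44 were in the table, where the RNA sensor RIGI carries its older name DDX58 in the annotation. RNA was sequenced after transfection of a control siRNA or of an siRNA that targets XPR1, the phosphate exporter of human cells. Each siRNA is represented by 1 library. The differences below therefore lack any replicate check, and p-values are not given. No untransfected cells are among the samples, so both libraries come from cells that had received an siRNA. The sources used here do not give the time after transfection or the siRNA sequences.

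Interferon-stimulated genes are transcribed when secreted interferons bind their receptors at the cell surface. Type I interferons act through IFNAR1 and IFNAR2 and the kinases JAK1 and TYK2, and phosphorylated STAT2 then joins IRF9 in a complex that binds the interferon-stimulated response element (ISRE) in promoters. Interferon-gamma acts through IFNGR1, IFNGR2, JAK1 and JAK2, and leads to binding at the gamma-activated site (GAS). The products degrade viral RNA, block translation of it, trap virions at membranes or carry the ubiquitin-like protein ISG15. Many are also held at a low level in tumour cells without an added interferon.

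Values are TPM, a length-corrected share of all transcripts, scaled to a sum of 1000000 in each library. The level of XPR1 checks the labels. It was 39.2 TPM with control siRNA and 5.31 TPM with XPR1 siRNA, 13.5% of control (95% Clopper-Pearson interval 11.6% to 15.7%). The libraries held about 15780000 and 15150000 counted reads, as far as reads can be recovered from TPM and gene length, and the intervals below come from those reads. They cover counting error only and are approximate for genes whose recovered reads were not whole, and 21 of the 44 genes had whole reads in both libraries. The thyroid factor PAX8 was abundant (588.1 and 408.6 TPM), as were the keratins KRT8 and KRT18. Of 14 thyroid epithelial markers, 6 averaged at least 1 TPM, and 5 of these had lower values with XPR1 siRNA, KRT7 alone past 1.5-fold (11.1 and 3.39 TPM). That list summed to 810.5 and 571.1 TPM, and its part in the results below was not tested. The thyroid genes NKX2-1, TSHR and SLC5A5 and the epithelial marker EPCAM were listed at 0 in both libraries. Of 14 leukocyte markers, 2 (ITGAX and IL3RA) reached a mean of 1 TPM, and CD3D, CD3E, MS4A1 and LYZ were listed at 0 in both libraries. The leukocyte markers summed to 5.06 TPM (control) and 5.40 TPM (XPR1 siRNA). Of 9 fibroblast and endothelial markers, COL1A1 (1.04 and 6.67 TPM) and PECAM1 (1.47 and 0.859 TPM) reached that mean. That list summed to 3.67 and 8.86 TPM, DCN was listed at 0, and its part was likewise not tested. In such bulk RNA, fewer cells with a transcript and less of it per cell cannot be told apart.

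As a group the interferon-stimulated genes lay above control in the XPR1-siRNA library, while the transcription factor IRF1 and the sensor RIGI lay below it. Among genes at 1 TPM or more in both libraries, OAS3, IFI6, USP18 and PARP9 had the largest upward differences. Of the 44 genes, 34 averaged at least 1 TPM over both libraries, 8 were above 0 but under that mean, and 2 (IFITM1 and MX2) were listed at 0 in both. Among the 34, 16 were at least 1.5-fold higher on the log2(TPM + 1) scale and 2 at least 1.5-fold lower. Of all 16319 genes with that mean, 21.7% were as much higher and 16.6% as much lower, and of the 11698 protein-coding genes 20.7% and 11.1%. The 34 genes were thus 47.1% higher and 5.88% lower by that measure. At 2-fold, 11 were higher and 1 was lower, against 10.4% and 8.57% of all genes and 8.75% and 4.57% of protein-coding genes. The median difference of the 34 genes was 0.56 on the log2(TPM + 1) scale, against 0.05 for all genes and 0.10 (0.095 unrounded) for protein-coding genes. The counting interval of the TPM ratio lay above 1 for 23 of the 34 and below 1 for 6, against 32.3% and 24.7% of all such genes with a known length. Of the 34, IFIT1 and OAS1 reached the mean through the XPR1-siRNA library alone, and the other 32 were at 1 TPM or more in both. IFIT1 and OAS1 are counted in the 16 genes past 1.5-fold and the 11 past 2-fold. The split by level below also gives counts without them.

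**Figure D1:**
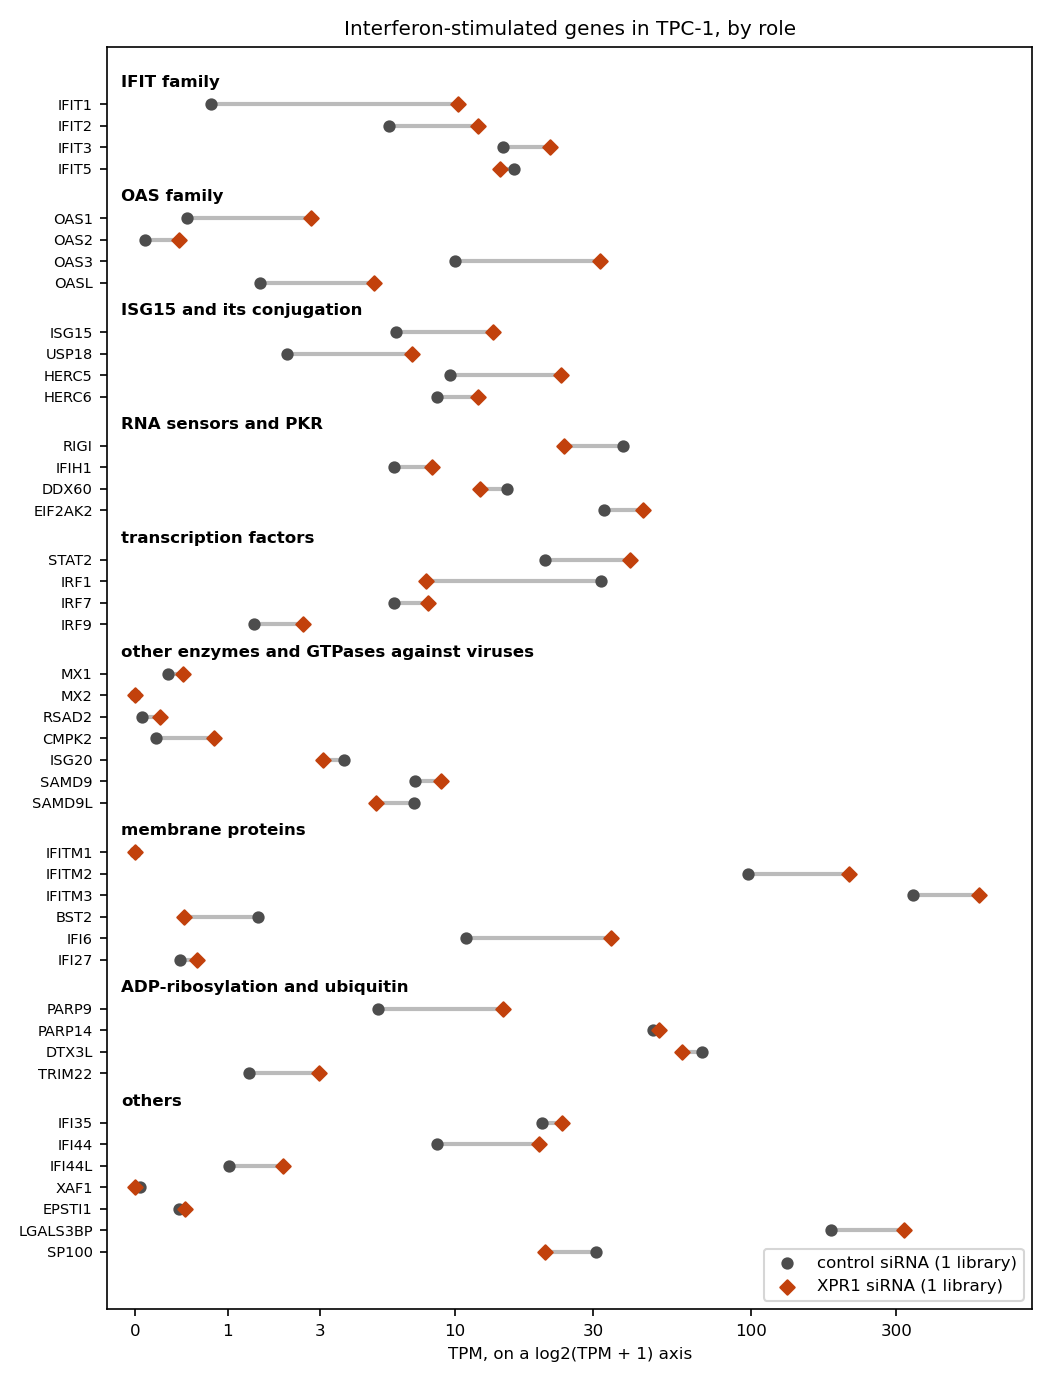
TPM of each of the 44 genes in the control library (circles) and the XPR1-siRNA library (diamonds), by role, on a log2(TPM + 1) axis. IFIT1 spans the widest gap, from 0.770 to 10.25 TPM, and IRF1 runs the other way, from 31.8 to 7.85 TPM.

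Split by level, the 17 genes with a mean between 1.52 and 13.8 TPM had 8 past 1.5-fold upward and none downward, where 24.3% and 18.7% of all genes in that range did so. Without IFIT1 and OAS1, which are in it through the XPR1-siRNA library alone, 6 of 15 passed upward. Of the 17 genes between 14.2 and 449 TPM, 8 were higher and 2 lower, beside 18.3% and 12.3% of all genes in that range. The median log2(TPM + 1) difference was 0.58 in the former and 0.51 in the latter. Summed over all 44 genes, the level was 1064 TPM for control and 1634 TPM for XPR1 siRNA, 1.54-fold higher. IFITM3, LGALS3BP and IFITM2 made up most of that sum, with 621.1 and 1087 TPM. The other 41 genes summed to 442.8 and 547.4 TPM, 1.24-fold higher.

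**Figure D2:**
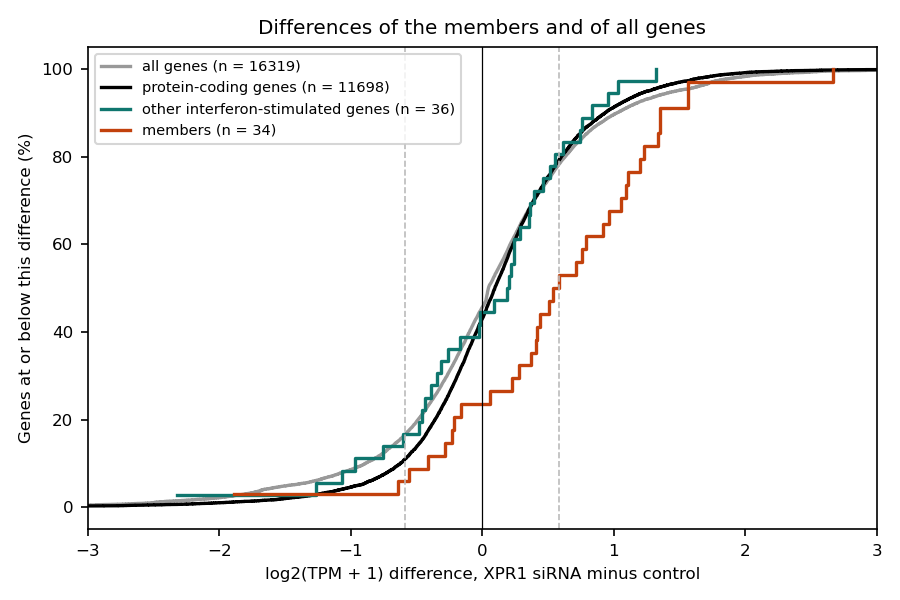
Cumulative share of genes at or below each log2(TPM + 1) difference (XPR1 siRNA minus control), for the 34 genes (members), 36 other interferon-stimulated genes, protein-coding genes and all genes that averaged at least 1 TPM, with dashed lines at 1.5-fold. The curve of the 34 genes lies to the right, with a median of 0.56 against 0.05 for all genes, and the other interferon-stimulated genes have a median of 0.20 (0.195 unrounded).

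Promoters are shown because the ISRE is the sequence these genes are known for. RefSeq windows on GRCh38.p14, from 250 bases before to 50 bases after the gene start, were at hand for 36 of the 44 genes. The windows below run 5′ to 3′ on the gene's own strand. Capitals mark ISRE letters (GAAA, 2 bases of any kind, GAAA) or GAS letters (TTCNNNGAA) on either strand, and the 2 motifs can overlap. IFIT1 and IFIT5 are neighbours of the same family that differed in response, OAS3 and IFI6 were among the highest ratios, and IRF1 was the lowest.
IFIT1 (chr10:89392373-89392672, plus strand): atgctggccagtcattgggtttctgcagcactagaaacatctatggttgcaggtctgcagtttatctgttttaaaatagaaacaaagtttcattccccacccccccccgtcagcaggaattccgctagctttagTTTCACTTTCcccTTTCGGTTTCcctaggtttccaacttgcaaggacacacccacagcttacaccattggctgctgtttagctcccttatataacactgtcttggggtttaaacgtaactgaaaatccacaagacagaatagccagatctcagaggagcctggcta
IFIT5 (chr10:89414318-89414617, plus strand): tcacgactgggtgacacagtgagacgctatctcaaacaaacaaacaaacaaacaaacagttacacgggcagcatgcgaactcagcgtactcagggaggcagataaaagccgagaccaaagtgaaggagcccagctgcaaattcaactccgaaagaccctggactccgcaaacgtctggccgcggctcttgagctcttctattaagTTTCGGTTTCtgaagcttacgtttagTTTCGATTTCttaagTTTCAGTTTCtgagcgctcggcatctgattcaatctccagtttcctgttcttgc
OAS3 (chr12:112938224-112938523, plus strand): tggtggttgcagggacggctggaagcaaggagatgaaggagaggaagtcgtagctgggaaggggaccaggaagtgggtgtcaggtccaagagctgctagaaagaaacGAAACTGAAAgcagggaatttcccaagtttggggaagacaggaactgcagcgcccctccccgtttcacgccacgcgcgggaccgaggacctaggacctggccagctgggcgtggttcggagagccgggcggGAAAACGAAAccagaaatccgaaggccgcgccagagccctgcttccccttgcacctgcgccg
IFI6 (chr1:27672143-27672442, minus strand): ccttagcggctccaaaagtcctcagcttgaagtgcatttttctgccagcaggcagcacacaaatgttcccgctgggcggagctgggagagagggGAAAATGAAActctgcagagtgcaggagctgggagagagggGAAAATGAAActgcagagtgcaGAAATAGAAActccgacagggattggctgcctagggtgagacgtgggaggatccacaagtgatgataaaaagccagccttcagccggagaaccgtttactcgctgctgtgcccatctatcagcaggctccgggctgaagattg
IRF1 (chr5:132490724-132491023, minus strand): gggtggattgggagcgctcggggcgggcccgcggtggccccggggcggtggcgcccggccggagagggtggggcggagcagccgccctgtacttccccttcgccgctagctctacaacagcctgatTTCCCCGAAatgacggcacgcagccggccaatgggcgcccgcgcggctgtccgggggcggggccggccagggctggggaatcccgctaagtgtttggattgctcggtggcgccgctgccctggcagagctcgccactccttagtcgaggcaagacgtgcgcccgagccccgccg

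The ISRE letters stood in 23 of the 36 windows (63.9%), against 3.57% of 35116 promoters in the same table and 2.89% of 9579 windows of expressed protein-coding genes. GAS letters stood in 10 of the 36 (27.8%), against 7.66% and 6.27%. Among the other interferon-stimulated genes described below, ISRE letters stood in 15 of 31 windows (48.4%) and GAS letters in 7 (22.6%). Of the expressed genes in that list, 19.4% were at least 1.5-fold higher and 16.7% lower. Frequent ISRE letters were thus not particular to the genes described here. The ISRE letters were in 8 of 11 windows of genes at least 1.5-fold higher (72.7%) and in 10 of 15 windows of genes within 1.5-fold (66.7%). They were in neither window of the lower genes, IRF1 and RIGI, and in 5 of 8 windows of genes below a mean of 1 TPM. The search required exactly 2 bases between the GAAA blocks. Closer blocks, such as gaaacgaaa in the windows of the lower gene RIGI and the higher gene OAS1, were not counted. Expressed genes with ISRE letters had a median log2(TPM + 1) difference of 0.55 (18 genes, from -0.28 to 2.67) and those without 0.33 (10 genes, from -1.89 to 1.35). IFIT5, with 3 matches in the window, was within 1.5-fold, and IFIT1, with 2, had the highest ratio. A match is a description of the letters in this window and shows no binding.

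**Figure D3:**
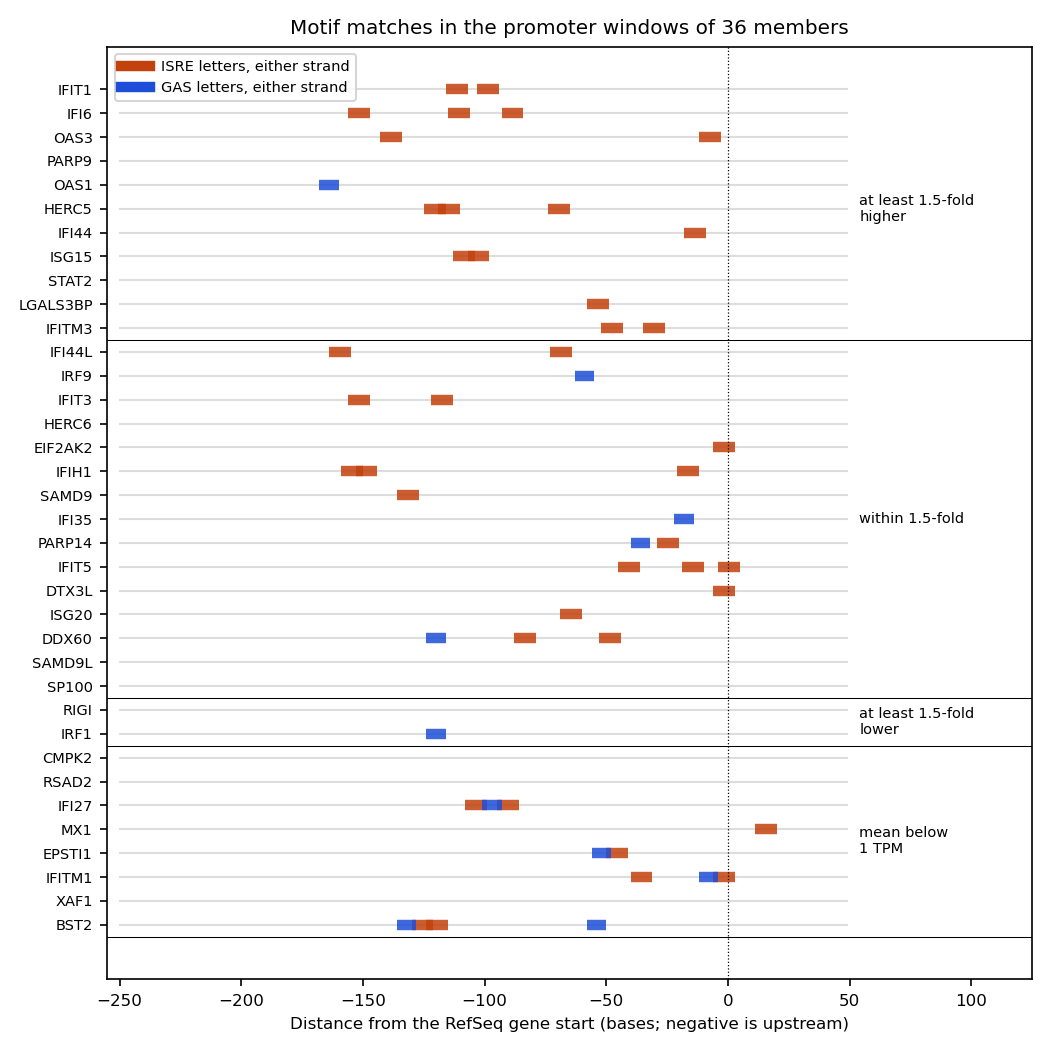
ISRE and GAS letters on either strand in the promoter windows of 36 genes, by distance in bases from the RefSeq gene start, with genes ordered by call and by difference. ISRE letters lie in 8 of 11 windows of higher genes and in 10 of 15 windows of genes within 1.5-fold.

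The IFIT proteins bind viral RNA that lacks the cap marks of host mRNA. IFIT1 (ENSG00000185745, chromosome 10, 89392546 to 89406486 on GRCh38, plus strand) was 0.770 TPM with control siRNA and 10.25 TPM with XPR1 siRNA, from 15 and 192 reads. That is 13.3-fold higher (7.87 to 24.2), the highest ratio of the 34 genes and rank 29 of 11698 protein-coding genes by log2(TPM + 1) difference. The other members of its chromosome 10 cluster had smaller ratios. IFIT2 was 5.70 and 12.0 TPM, 2.11-fold higher (1.64 to 2.70). Its exons overlap those of the lysosomal lipase gene LIPA on the other strand by 65 bases, and LIPA was itself 37.3 and 126.0 TPM. On the same strand, 8.68% of its exon bases overlap a further annotated gene (ENSG00000232110, 0.234 and 1.22 TPM). IFIT3 was 14.8 and 21.5 TPM, 1.45-fold higher (1.19 to 1.79), and so within 1.5-fold. IFIT5, which begins 8.10 kb beyond IFIT1, was 16.2 and 14.4 TPM, with a ratio of 0.888 (0.742 to 1.06). In control IFIT1 was the scarcest of the 4, and after XPR1 siRNA the 4 lay between 10.25 and 21.5 TPM.

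The 2′-5′-oligoadenylate synthetases OAS1, OAS2 and OAS3 answer double-stranded RNA with a messenger that leads to RNA decay, and OASL is a relative without that activity that helps RIGI. All 4 had higher values after XPR1 siRNA. The 3 with a mean of at least 1 TPM were each at least 2-fold higher on the log2(TPM + 1) scale. Of all genes with that mean, 10.4% were as much higher. OAS1 reached the mean through the XPR1-siRNA library alone. OAS3 (chromosome 12, 112938352 to 112973249) was the most abundant, at 9.99 and 31.6 TPM, 3.16-fold higher (2.80 to 3.58). OAS1, 5.13 kb before it, was 0.480 and 2.74 TPM from 10 and 55 reads, 5.72-fold higher (2.89 to 12.6). OASL, elsewhere on chromosome 12, was 1.55 and 4.97 TPM, 3.21-fold higher (1.98 to 5.38). OAS2 had 2 and 10 reads, a ratio of 5.20 with an interval from 1.11 to 48.8.

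ISG15 is attached to proteins as ubiquitin is, HERC5 is the ligase that attaches it, and USP18 removes it and also restrains signalling at IFNAR2. ISG15 (chromosome 1, 1001138 to 1014540) was 6.04 and 13.6 TPM, 2.25-fold higher (1.36 to 3.82, from 24 and 52 reads). HERC5 was 9.60 and 23.4 TPM, 2.43-fold higher (2.05 to 2.90). Its chromosome 4 neighbour HERC6, 14.0 kb away, was 8.59 and 12.0 TPM, 1.40-fold higher (1.17 to 1.68). Ligase and relative thus both had intervals above 1, and HERC5 alone passed 1.5-fold. USP18 was 2.12 and 6.94 TPM, 3.28-fold higher (1.93 to 5.82). It shares 23.4% of its 50-base words with other transcripts, mostly those of its copy USP41, which was 0.149 TPM with control siRNA and listed at 0 with XPR1 siRNA. Of other genes of ISG15 attachment, the activating enzyme UBA7 was 10.7 and 16.2 TPM, and the conjugating enzyme UBE2L6 66.3 and 91.5 TPM. Both were within 1.5-fold on the log2(TPM + 1) scale, with ratios of 1.51 (1.26 to 1.81) and 1.38 (1.24 to 1.53).

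The sensors of viral RNA were split in direction. RIGI, which detects RNA ends with a triphosphate, was 37.8 and 23.8 TPM, 1.59-fold lower (1.40 to 1.79). Its difference of -0.64 came within 1.5-fold, at -0.57, with a pseudocount of 5 TPM in place of 1. IFIH1, or MDA5, which detects long double-stranded RNA, was 5.98 and 8.29 TPM, 1.39-fold higher (1.10 to 1.76). The helicase DDX60 was 15.2 and 12.3 TPM, 1.24-fold lower (1.07 to 1.43). EIF2AK2, or PKR, the kinase that halts translation on double-stranded RNA, was 32.7 and 43.9 TPM, 1.34-fold higher (1.26 to 1.44). Of the 4 genes, RIGI was the only 1 past 1.5-fold, and their summed level was 91.7 and 88.4 TPM.

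Among the transcription factors, STAT2 and IRF1 stood on opposite sides. STAT2 (chromosome 12, 56341597 to 56360155) was 20.6 and 39.9 TPM, 1.94-fold higher (1.74 to 2.16). IRF9, the DNA-binding partner of STAT2, had low values, at 1.44 and 2.53 TPM from 23 and 39 reads. Its ratio was 1.76 (1.03 to 3.09), but its difference of 0.54 on the log2(TPM + 1) scale was within 1.5-fold. IRF9 shares 43.2% of its 50-base words with another annotated gene of the same strand (ENSG00000259529), which overlaps 48.4% of IRF9's exon bases. That gene was 0.085 TPM with control siRNA and listed at 0 with XPR1 siRNA. How reads in the overlap were counted is uncertain. IRF7, the factor that amplifies interferon-alpha transcription, was 5.95 and 7.97 TPM, with a ratio of 1.34 (0.959 to 1.88). IRF1 (chromosome 5, 132481609 to 132490798, minus strand), a factor induced by interferon-gamma and by NF-kB, was 31.8 and 7.85 TPM. That is 4.05-fold lower (3.52 to 4.67, from 1048 and 249 reads), rank 140 from the lowest of 11698 protein-coding genes. Of its exon bases, 22.0% overlap the antisense gene IRF1-AS1 (1.75 and 0.785 TPM), and the library kit does not mark strand.

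The most abundant gene of the group, IFITM3, was among the membrane proteins. IFITM3, which blocks fusion of viruses in endosomes, was 339.5 and 557.9 TPM, 1.64-fold higher (1.55 to 1.74). IFITM2 was 98.0 and 210.2 TPM, 2.15-fold higher (1.95 to 2.36). IFITM1 was listed at 0 in both libraries, where 3 reads would give 0.658 and 0.684 TPM. The annotated exons of IFITM1 and IFITM2 overlap on chromosome 11, over 32.5% of IFITM1's exon bases. IFITM3 and IFITM2 share sequence too, with 17.4% and 34.1% of their 50-base words found in other transcripts, so how their reads were divided is uncertain. IFI6, a mitochondrial and endoplasmic reticulum protein (chromosome 1, 27666061 to 27672218), was 11.0 and 34.5 TPM, 3.14-fold higher (2.18 to 4.62). IFI27 was 0.400 and 0.594 TPM, from 7 and 10 reads. BST2, or tetherin, which holds budding virions, was 1.51 and 0.447 TPM from 7 and 2 reads, just under the mean of 1 TPM, with a ratio of 0.297 (0.0301 to 1.56).

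The antiviral effectors that are scarce in many unstimulated cells were near the limit of these libraries. MX1 was 0.275 and 0.429 TPM from 10 and 15 reads, and MX2 was listed at 0 in both, where 3 reads would give 0.0545 and 0.0566 TPM. RSAD2, or viperin, had 1 and 4 reads, with a ratio of 4.16 (0.411 to 205.0). Its neighbour CMPK2, which supplies the nucleotide that viperin alters, had 3 and 14 reads, with a ratio of 4.85 (1.35 to 26.3). Both counts were higher after XPR1 siRNA, and only the interval of CMPK2 lay above 1. The exonuclease ISG20 was 3.80 and 3.09 TPM, with a ratio of 0.813 (0.610 to 1.07). The neighbours SAMD9 and SAMD9L on chromosome 7, which restrict poxviruses, differed in direction within 1.5-fold. SAMD9 was 7.16 and 8.91 TPM, 1.25-fold higher (1.03 to 1.5), and SAMD9L 7.09 and 5.06 TPM, 1.40-fold lower (1.13 to 1.74).

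PARP9 and DTX3L encode partners that ubiquitinate and ADP-ribosylate proteins together, and their genes lie head to head on chromosome 3. PARP9 (122527924 to 122564577, minus strand) was 5.17 and 14.7 TPM, 2.85-fold higher (2.41 to 3.37). DTX3L (122564238 to 122575203, plus strand) was 69.1 and 59.2 TPM, 1.17-fold lower (1.09 to 1.25). Their intervals lie on opposite sides of 1, and their exons overlap by 217 bases, 2.43% of PARP9 and 3.70% of DTX3L. PARP14, 116.0 kb from PARP9, was 47.6 and 49.7 TPM, with a ratio of 1.04 (0.984 to 1.11). The ubiquitin ligase TRIM22 was 1.36 and 2.98 TPM, 2.20-fold higher (1.47 to 3.46, from 34 and 73 reads).

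Of the remaining genes, LGALS3BP, a secreted glycoprotein that binds galectins, was 183.6 and 318.5 TPM, 1.73-fold higher (1.65 to 1.82). IFI44 was 8.60 and 19.7 TPM, 2.29-fold higher (1.73 to 3.06). Its neighbour IFI44L, 3.65 kb away on chromosome 1, was 1.02 and 2.02 TPM, a ratio of 1.98 (1.36 to 2.93). IFI44L, at a log2(TPM + 1) difference of 0.58, lies just inside 1.5-fold on that scale. IFI35 was 20.1 and 23.6 TPM, with a ratio of 1.18 (0.950 to 1.46). SP100, a nuclear body protein, was 30.7 and 20.5 TPM, a ratio of 0.668 (0.618 to 0.723), with a difference of -0.56 that was also just inside and passed 1.5-fold under median-of-ratios and upper-quartile scaling. XAF1 had 1 read, in the control library, and EPSTI1 8 and 9 reads.

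**Figure D4:**
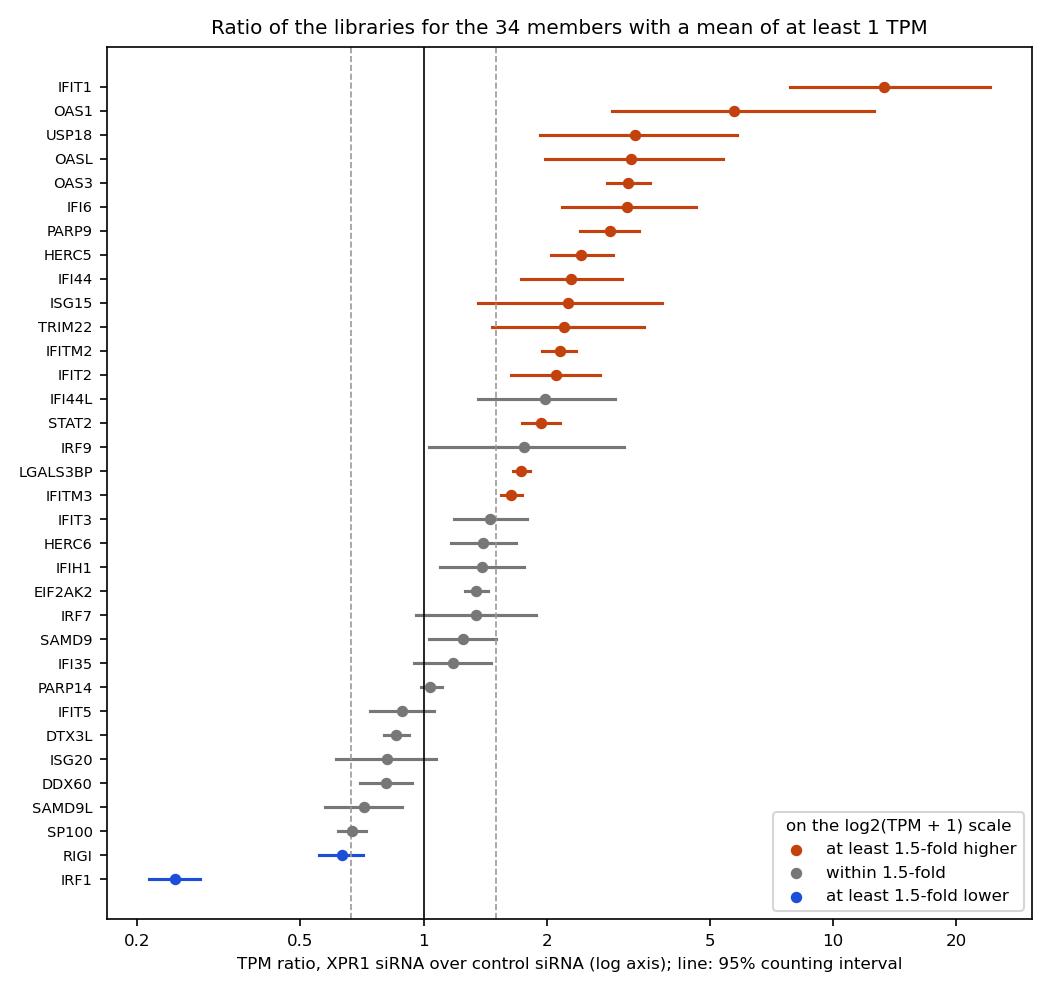
TPM ratio of XPR1 siRNA over control (log axis) for the 34 genes that averaged at least 1 TPM, with 95% counting intervals, coloured by the call on the log2(TPM + 1) scale and with dashed lines at 1.5-fold. Intervals lie above 1 for 23 genes and below 1 for 6, and IFIT1 and IRF1 mark the ends at 13.3 and 0.247.

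Upstream of these genes, hardly any interferon transcript was found. Of 21 interferon genes, 18 were listed at 0 in both libraries. IFNE, an epithelial type I interferon, was 3.37 and 4.34 TPM from 21 and 26 reads, a ratio of 1.29 (0.696 to 2.41). IFNA1 had 1 and 2 reads, and IFNB1 1 read, in the control library. For IFNG, IFNL1, IFNL2 and IFNL3 no read was listed.

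The receptors and kinases lay in both directions, with 2 of 11 at least 1.5-fold higher (18.2%) and 3 lower (27.3%), beside 21.7% and 16.6% of all genes. JAK1 was 147.8 and 244.3 TPM, 1.65-fold higher (1.59 to 1.72). IFNGR2, a chain of the interferon-gamma receptor, was 232.1 and 76.0 TPM, 3.05-fold lower (2.83 to 3.29). IL10RB, a chain of the interferon-lambda receptor, was 3.56 and 1.09 TPM, 3.27-fold lower (1.96 to 5.69), and IFNAR2 5.03 and 2.83 TPM, 1.78-fold lower (1.26 to 2.53). These 3 receptor genes lie in 1 cluster on chromosome 21, and IFNAR1, in the same cluster, was 60.7 and 58.9 TPM. Among 5 expressed feedback inhibitors 2 were at least 1.5-fold lower (40%) and none higher, beside 16.6% and 21.7% of all genes. SOCS3 was lower by 2.38-fold (2.21 to 2.57) and the phosphatase PTPN2 by 1.68-fold (1.49 to 1.91). SOCS1, the main brake on JAK kinases in the interferon pathway, was 16.8 and 12.2 TPM.

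Of 10 expressed genes of nucleic acid sensing, 3 were higher and 3 lower (30% each, beside 21.7% and 16.6% of all genes). STING1, the adaptor for cytosolic DNA, was 25.0 and 53.3 TPM, 2.13-fold higher (1.89 to 2.41), and TICAM1, the adaptor of the RNA receptor TLR3, 67.5 and 24.9 TPM, 2.72-fold lower (2.36 to 3.13). TRAF3 was 80.9 and 42.5 TPM, 1.90-fold lower (1.79 to 2.03). TLR3 itself was 8.78 and 8.43 TPM, with a ratio of 0.960 (0.799 to 1.15). Of the remaining IRF genes, only IRF2 was expressed at a mean of 1 TPM, at 41.8 and 45.1 TPM.

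A further 46 genes known to respond to interferon gave counts near those of all genes. Of the 36 that averaged at least 1 TPM, 7 were at least 1.5-fold higher (19.4%) and 6 lower (16.7%), beside 21.7% and 16.6% of all genes, with a median log2(TPM + 1) difference of 0.20 (0.195 unrounded) and a mean of 0.01. Among those with the largest differences were GBP5, a guanylate-binding protein, at 5.36 and 0.272 TPM, 19.7-fold lower (10.1 to 43.7), and SLFN5 at 140.0 and 57.6 TPM, 2.43-fold lower (2.32 to 2.55). CXCL9, CXCL10 and CXCL11, the chemokines of the interferon response, were listed at 0 in both libraries. Among 18 expressed genes of antigen presentation and interferon-gamma response, 2 were higher (11.1%) and 5 lower (27.8%), with a median of 0.13 and a mean of -0.23. WARS1, a tRNA synthetase that interferon-gamma induces, was 188.0 and 31.3 TPM, a ratio of 0.167 (0.154 to 0.179). ICAM1, an adhesion molecule, was 127.3 and 30.8 TPM, 4.13-fold lower (3.74 to 4.59), and CD274, the ligand of PD-1, 34.4 and 11.7 TPM, 2.94-fold lower (2.50 to 3.47). Over all 81 expressed genes of the 7 lists in this and the preceding 3 paragraphs, 13 were higher (16%) and 19 lower (23.5%). Of the 34 interferon-stimulated genes, 16 were higher (47.1%) and 2 lower (5.88%), beside 21.7% and 16.6% of all genes. The 44 genes and these lists were drawn up from prior knowledge with earlier results of the libraries in view, so the contrast between them is a description.

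**Figure D5:**
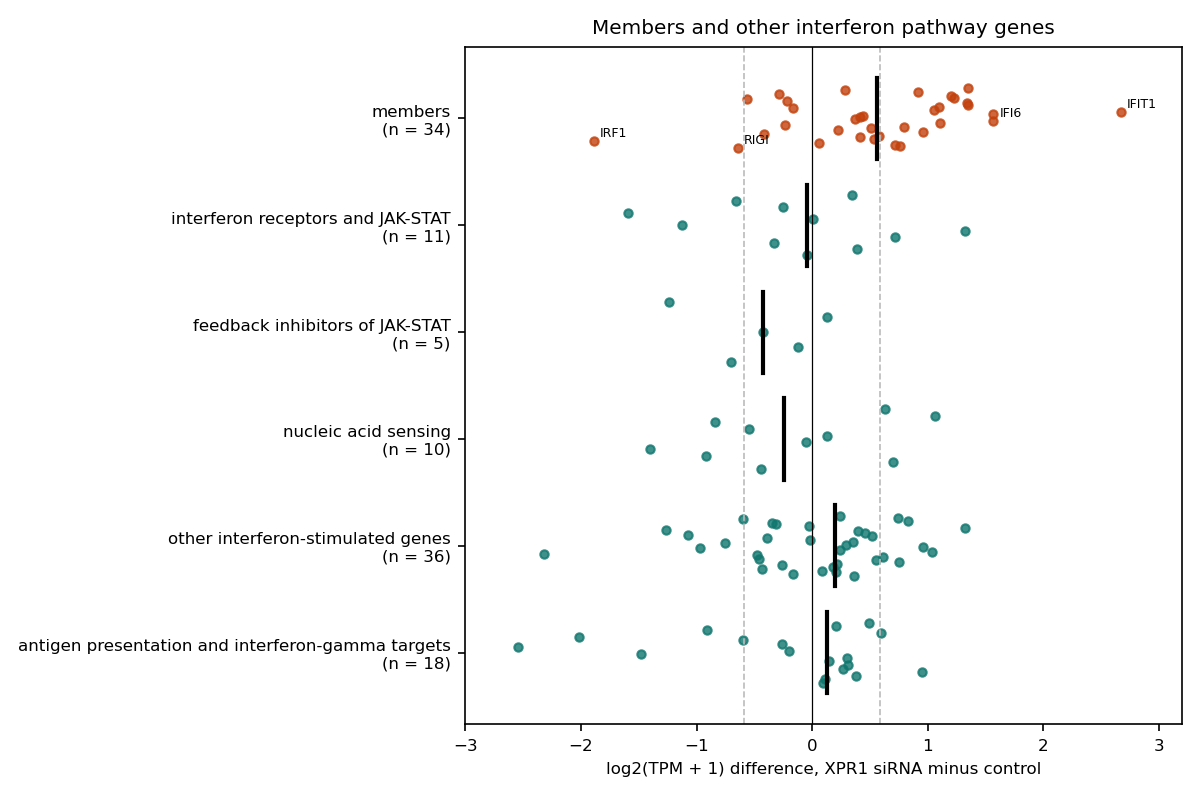
Log2(TPM + 1) difference of each gene that averaged at least 1 TPM, for the 34 genes (members) and for 5 lists of the pathway, with the median as a bar, dashed lines at 1.5-fold and the 2 extremes at each end of the 34 genes named. The 34 genes have a median of 0.56, the receptors -0.04, the feedback inhibitors -0.43 and the sensing genes -0.25.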

How the data were processed

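RNA of 2 libraries was measured, 1 per siRNA. The TruSeq RNA Library Prep Kit v2, which does not mark strand, was used per the labels' protocols. Per the submitters' processing notes, featureCounts 2.0.0, Trimmomatic 0.38, MultiQC and FastQC were used with GRCh38. The sources used here do not name the aligner. TPM for 58884 genes were deposited by the authors, each library summing to 1000000. Symbols came from a table that matched 58472 identifiers, and lengths and coordinates from GENCODE 29, which held 58611.

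Differences are log2((TPM + 1)/(TPM + 1)), XPR1 siRNA over control, which understates those of low genes. Genes averaging at least 1 TPM were compared, and a difference of at least 1.5-fold was counted. With 1 library per group no test was made. TPM times exon length fell within 0.01 of whole multiples of 1 step for 92.2% and 92.4% of genes of at most 10 reads and 72.0% and 71.6% of all genes above 0. Those reads gave 95% Clopper-Pearson intervals, and 3 reads set the limit for a count of 0. Without molecular identifiers, several reads may come from 1 molecule. The recovery and intervals were also run on simulated counts. Those were built with the same gene lengths, so that run cannot check whether the lengths fit the deposited TPM. Overlaps, shared 50-base words and motifs were computed from GENCODE 29 and RefSeq. The 44 genes and all lists were chosen with earlier results of these data known. Genes named are those 44, the up to 3 with the largest difference of each other list, interferon ligands above 0 and XPR1. Other names (such as LIPA, UBA7, UBE2L6, JAK1, IFNAR2, TLR3, IFNAR1 and CXCL9 to CXCL11) were chosen after their values were seen. Some genes of these lists are counted but not reported by name here. Scripts used pandas 2.3.3, NumPy 2.4.6 and SciPy 1.17.1.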

Additional observations from a re-analysis of the deposited data

How the results depend on the processing

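No paired analysis was possible because only 1 library stands behind each siRNA, and none could be left out. The count of 16 higher genes ranged from 11 at 2-fold to 18 with a pseudocount of 0.1, and all 16 stayed past 1.5-fold under both rescalings. The share of all genes as much higher moved with the setting. It was 10.4% at 2-fold, 24.9% with a pseudocount of 0.1 and 12.7% with a pseudocount of 5, where 14 of the 34 genes were higher. After median-of-ratios and upper-quartile scaling it was 19.9% and 18.8%. The count of 2 lower genes was 1 with a pseudocount of 5 or at 2-fold, and 3 with a floor of 0.1 TPM or none (which adds BST2) or either rescaling (which adds SP100). Of all genes, 9.1% were as much lower with a pseudocount of 5 and 8.57% at 2-fold. That share was 16.4% with a floor of 0.1 TPM, which keeps 41 of the 44 genes, and 6.85% with none. After median-of-ratios and upper-quartile scaling it was 18.1% and 19.1%. The median of 0.56 ranged from 0.35 (pseudocount 5) to 0.75 (pseudocount 0.1). It was 0.52 and 0.50 (0.496 unrounded) after median-of-ratios and upper-quartile scaling. Their scaling factors are 0.056 and 0.091 in log2, and low genes shift by less because 1 TPM is added after scaling. Without the 6 genes that share over 10% of their 50-base words, chosen after seeing the data, 12 of 29 were higher, 2 lower, and the median was 0.44. The shares of all genes there stay at 21.7% higher and 16.6% lower. Of the 44 genes, only PARP14, within 1.5-fold, changed sign, to -0.03 (-0.027 unrounded) with upper-quartile scaling. IRF1 was -1.52 with a pseudocount of 5, and RIGI (-0.57), OAS1 (0.50, 0.499 unrounded) and TRIM22 (0.33) then came within 1.5-fold. The XPR1 difference of -2.67 was -2.10 with a pseudocount of 5. At 2-fold the 81 other pathway genes gave 3 higher and 10 lower, against 13 and 19 at 1.5-fold. Of all genes, 10.4% were higher and 8.57% lower at 2-fold, against 21.7% and 16.6% at 1.5-fold. Depth limits the 10 genes under a mean of 1 TPM, which had at most 15 reads in either library.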
